A study of Homo sapiens with 12 samples.

Results

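The unit described here is the window, a stretch of 5 Mb of an autosome of the human genome build GRCh38, counted from position 1 of each chromosome. Genes were placed in windows by their start in the GENCODE release 44 annotation, and a window was kept when it held at least 8 genes that passed a filter on low counts. In all, 484 of 587 windows were kept, out of 549 that held any tested gene. The kept windows held 13325 of 14175 genes tested, and a window held between 8 and 141 genes with a median of 21. The 8 windows with 7 genes, just outside the minimum, had medians from -0.18 to 0.73 in adherent cells, and the 19 windows with 8 genes, just inside it, had medians from -0.70 to 0.55, all on the log2 scale explained below.

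The counts came from 12 RNA-seq libraries of DU145 cells, an established human prostate cancer cell line. Cells carried either a control hairpin (shCtrl) or the knockdown hairpin of the study (shSigma), and were grown attached to plastic (adherent, adh) or as floating tumor spheres (TS), with 3 replicates in each of the 4 groups. Both kinds of cells had been made by stable lentiviral infection with a short hairpin RNA and selection with puromycin, so each hairpin is tied to the line that carries it, and the effect of the hairpin and differences between the lines cannot be told apart here. Because the same lines were grown in both cultures, agreement between cultures does not separate them either. The labels call the replicates independent, but do not say that they came from separate infections, so p-values measure the spread between cultures of the same lines.

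Neighbouring genes on a chromosome share their DNA, and when a cell gains or loses part of a chromosome, the RNA of most genes there moves in the same direction as the number of copies. Cultured cancer lines often carry such gains and losses, and sublines of one line can differ in them. Neighbours can also share chromatin state, replication timing and base composition, each of which can move RNA levels over long stretches. A median over many genes of a window puts aside the regulation of any single gene and shows what its neighbours have in common. DNA copy number was not measured in these libraries, and its part in the values below was not tested.

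Shifted stretches end at borders, which are described further on, and the genes at their edges mark where the members change. To show sequence from both sides of such borders, the 100 bases before the transcription start of 4 of the genes nearest to them are given, from the RefSeq promoter table of GRCh38.p14, 5′ to 3′ on the gene's strand, with every CG in capitals. Genes whose 100 bases overlapped an annotated exon were left out. ZNF697, which starts beside PHGDH on the other strand, is on the lower side of the chromosome 1 border (chr1:119648267-119648366, minus strand), CHCHD2 before the chromosome 7 border (chr7:56106477-56106576, minus strand), ARL6 beyond the chromosome 3 border (chr3:97764421-97764520, plus strand) and ZFR beyond the chromosome 5 border (chr5:32444741-32444840, minus strand).
ZNF697: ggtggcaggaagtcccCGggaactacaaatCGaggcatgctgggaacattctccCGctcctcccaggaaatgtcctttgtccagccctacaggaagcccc
CHCHD2: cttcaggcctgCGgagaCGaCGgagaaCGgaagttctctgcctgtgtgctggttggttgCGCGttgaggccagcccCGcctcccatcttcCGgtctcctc
ARL6: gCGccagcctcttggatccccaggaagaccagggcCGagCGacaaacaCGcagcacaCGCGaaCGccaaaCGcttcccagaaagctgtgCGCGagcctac
ZFR: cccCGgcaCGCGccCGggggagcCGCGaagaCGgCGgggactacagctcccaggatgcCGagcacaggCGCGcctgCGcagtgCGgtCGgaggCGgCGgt
They hold 3, 8, 10 and 16 CG, beside a median of 5 over 33725 autosomal promoters of the table, of which 84.2% hold at least 1 CG in these 100 bases.

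Total counts ran from 16472722 to 26957777 per library, and between 87.9 and 91.3% of them fell in kept windows. KRT8 and KRT18, keratins of luminal epithelium, stood between 195 and 502 CPM (counts scaled to a common library size) in all 12 libraries, while KLK3, a secreted protease of prostate epithelium, stood at 0 to 0.0909 CPM. EPCAM and CDH1, adhesion proteins of epithelium, moved with the hairpin: EPCAM went from 231 ± 25.7 to 30.4 ± 1.34 CPM in adherent cells (mean ± SD, n = 3) and from 626 ± 41.7 to 63.0 ± 1.45 CPM in tumor spheres, and CDH1 from 26.3 ± 0.0885 to 11.8 ± 1.68 and from 742 ± 51.1 to 28.3 ± 3.48 CPM. The part of this difference between the lines in the window shifts was not tested. Of 8 markers of other cell types, 6 (PTPRC, PECAM1, COL3A1, LYZ, HBB and ALB) stayed under 0.359 CPM, ACTA2 reached 1.95 CPM and COL1A1 ran from 3.04 to 25.8 CPM. The adherent fit was noisier than the sphere fit, with a biological coefficient of variation of 14.4% against 6.89%.

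The first question was how far the windows moved with the hairpin in each culture. In bulk RNA, fewer cells of a kind and less RNA per cell cannot be told apart. The window median is the median over its genes of the log2 fold change of shSigma against shCtrl, so a value above 0 says that the middle gene of the window stood higher in shSigma cells. Window medians ran from -0.78 to 0.88 in adherent cells and from -0.88 to 0.97 in tumor spheres. Their SD over the 484 windows was 0.29 in adherent cells and 0.27 in tumor spheres. A window was called when limma on the 6 libraries' window values gave a Benjamini-Hochberg adjusted p under 0.05 and the absolute median was over 0.2. In adherent cells 164 windows were called, 77 higher and 87 lower, which is 33.9% of those tested. In tumor spheres 152 were called, 69 higher and 83 lower, or 31.4%. The adherent split between higher and lower calls moved with the scaling, from 47.0% higher to 37.2% with all genes centred on 0 and to 38.3% with DESeq2 size factors, and without adh shCtrl replicate 3 it was 49 higher and 142 lower. The size limit decided many calls in tumor spheres, where 279 windows passed the adjusted p alone and 127 of them were at or under 0.2 in size.

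Windows explained a small share of the spread of single genes. The R-squared of gene fold changes on windows, adjusted for the number of windows, was 7.74% in adherent cells and 6.41% in tumor spheres. Genes passed the test in all parts of the genome: over all genes tested, 24.6% were higher and 23.0% lower in adherent shSigma cells, and 29.7% were higher and 30.3% lower in tumor spheres. Windows called higher in adherent cells held 14.8% of the genes of kept windows and 29.0% of the genes that were higher. Of their 1973 genes, 48.4% were higher and 9.43% lower. Windows called lower in adherent cells also held 14.8% of the genes, and 54.4% of their 1977 genes were lower. In tumor spheres 58.7% of the 2002 genes in windows called higher were higher, and 65.8% of the 1753 genes in windows called lower were lower. The windows were called on these same genes, so these shares describe them and are no test.

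**Figure D1:**
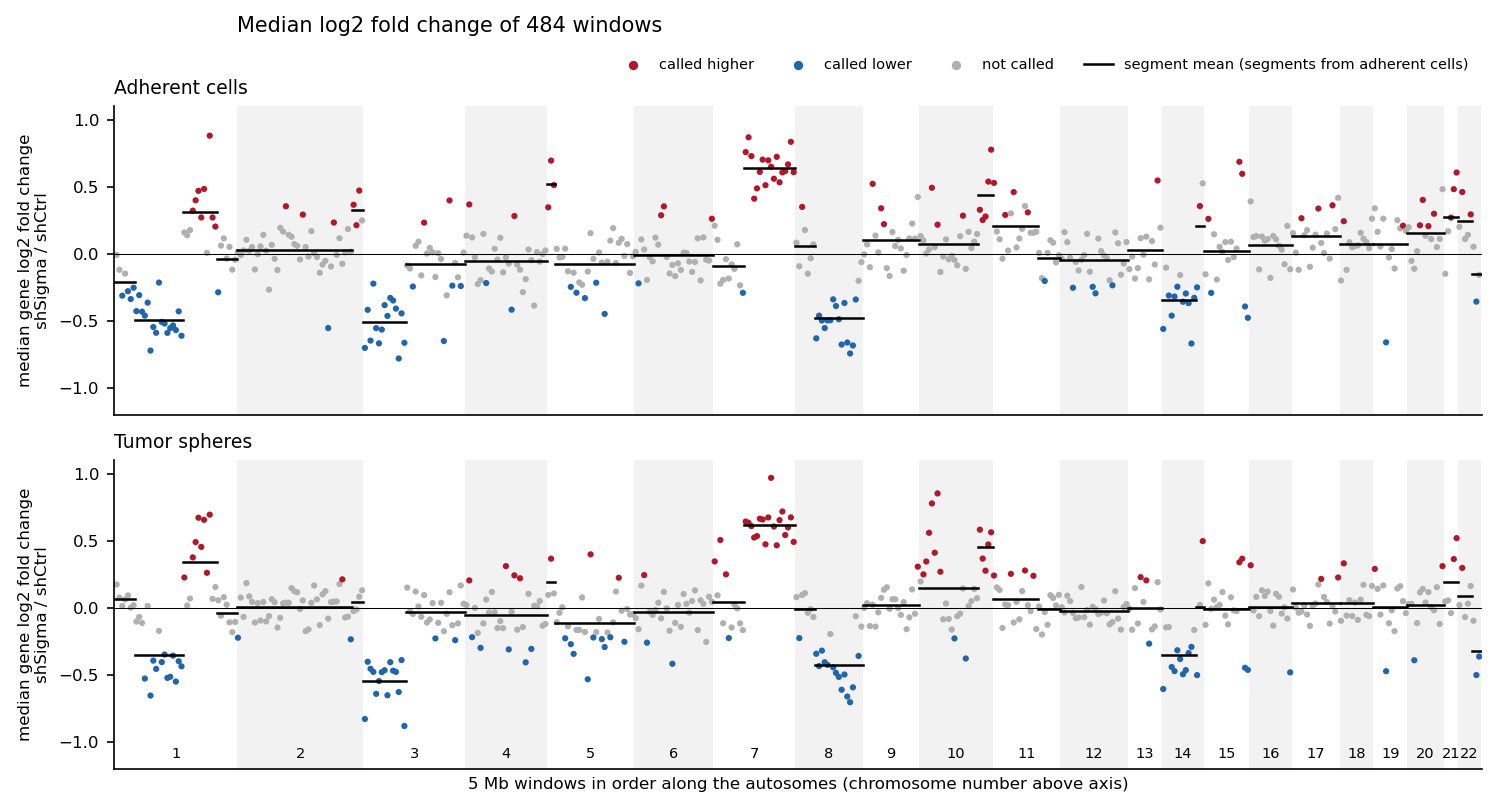
Window medians (log2 fold change of shSigma against shCtrl, y axis) in order along the 22 autosomes (x axis) in adherent cells (top) and tumor spheres (bottom), 1 point per window, coloured by whether it was called higher, called lower or not called, with black lines at the means of segments cut from adherent cells. The long run above 0 on chromosome 7 and the runs below 0 on chromosomes 3, 8 and 14 stand at like heights in both panels. On chromosome 1 the segment mean from 0 to 35 Mb is -0.21 in adherent cells and 0.06 in tumor spheres. From 35 to 120 Mb of chromosome 1 it is -0.49 and -0.35.

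The shifts were arranged in long runs. The Pearson coefficient between a window and its right-hand neighbour, over 409 neighbouring pairs, was 0.69 in adherent cells and 0.68 in tumor spheres. For tumor spheres against adherent cells, the other comparison of the design, it was 0.34 in shCtrl and 0.29 in shSigma cells, and for the GC content of the windows it was 0.68. These are descriptions of pairs that share base composition and chromosome, not tests.

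The second question was whether the cultures, which have separate shCtrl and shSigma libraries, agreed. The median had the same sign in both cultures in 353 of 484 windows, or 72.9%, with an exact binomial 95% interval of 68.7 to 76.8% that treats windows as independent, which neighbours are not. Across windows the Pearson coefficient was 0.80 and the Spearman coefficient 0.71. Called in both cultures in the same direction were 96 windows, 41 higher and 55 lower. They were all the windows called in both, since the 3 with an adjusted p under 0.05 and opposite signs were under the size limit in at least 1 culture. The 96 were 58.5% of the adherent calls and 63.2% of the sphere calls. Both medians were over 0.4 in size with the same sign in 56 windows.

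**Figure D2:**
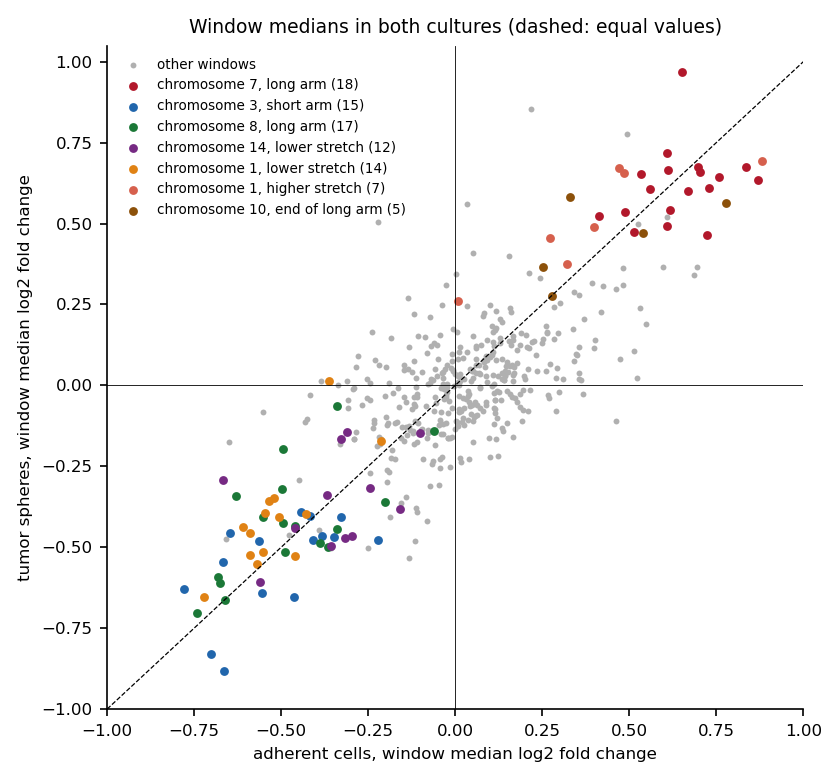
Window median in tumor spheres (y axis, log2) against adherent cells (x axis, log2), 1 point per window, with the windows of 7 stretches described further on in colours, the other windows in grey and a dashed line at equal values. Of the 88 coloured windows 87 lie in the upper right or the lower left, and most of the 396 grey windows lie nearer to 0.

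The 96 windows formed 29 runs of neighbours on 14 chromosomes. The longest were 18 higher windows from 65 to 160 Mb of chromosome 7 and 15 lower windows from 0 to 75 Mb of chromosome 3. Of the 29 runs, 10 had at least 3 windows and held 74 of the 96, and 16 were single windows. Chromosomes 2, 6, 9, 12, 13, 16, 17 and 20 had no window called in both cultures. On the X chromosome, which the windows leave out, the median over 450 genes was 0.036 in adherent cells and 0.027 in tumor spheres.

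For a closer description, 7 stretches were picked after their values were seen, from the partitions described further on. Both stretches of chromosome 1 are segments of the sphere partition, and the others are segments of the adherent partition. The adherent partition began its lower segment of chromosome 1 at 35 Mb, where the stretch begins at 50 Mb. They hold 88 windows, 18.2% of those kept, and 77 of the 96 windows called in both cultures, or 80.2%. Within them the sign was the same in both cultures in 87 of 88 windows. In the other 396 windows it was the same in 266, or 67.2%, with a Pearson coefficient of 0.54, and 19 were called in both cultures. Because the stretches were picked with these values known, the contrast describes the choice and is no test of agreement. For each stretch a library value was taken as the median over its genes of log2 CPM less the gene's mean in the 6 libraries of that culture.

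The largest was the long arm of chromosome 7, from 65 to 160 Mb, with 18 windows and 438 genes. Library values were -0.36, -0.32 and -0.26 in adherent shCtrl against 0.33, 0.33 and 0.32 in adherent shSigma cells, and -0.28, -0.29 and -0.29 in sphere shCtrl against 0.29, 0.32 and 0.28 in sphere shSigma cells. The groups were far apart in both cultures, and the replicates lay close together. The median gene was 0.65 higher in adherent cells (1.57-fold) and 0.59 higher in tumor spheres (1.51-fold). All 18 windows were called higher in both cultures, with medians from 0.41 to 0.87 in adherent cells and from 0.47 to 0.97 in tumor spheres. Of the 438 genes 280 were higher and 16 lower in adherent cells, and 331 were higher and 22 lower in tumor spheres. Among all genes tested, 24.6% were higher and 23.0% lower in adherent cells, and 29.7% and 30.3% in tumor spheres. The shift was spread over the arm rather than held by a few windows, and from window to window the cultures kept little common order, with a Pearson coefficient of 0.27 over the 18. On the short arm, 11 windows with 233 genes had a median of 0.02 in adherent cells and 0.00 in tumor spheres. Single windows of that arm were called in tumor spheres: the windows from 0 to 5, 10 to 15 and 20 to 25 Mb were called higher, at 0.35, 0.51 and 0.25, and that from 25 to 30 Mb lower, at -0.23, and the partition of tumor spheres described further on put a border at 15 Mb.

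Windows of the long arm of chromosome 7 were 4 of the 5 highest in the genome by the mean of both cultures. The highest, from 115 to 120 Mb with 11 genes, had library values of -0.24, -0.24 and -0.37 in adherent shCtrl and 0.29, 0.25 and 0.43 in adherent shSigma cells, and its median was 0.65 (adjusted p 0.000133, limma). In tumor spheres the values were -0.52, -0.28 and -0.49 in shCtrl and 0.47, 0.34 and 0.42 in shSigma cells, with a median of 0.97 (adjusted p 3.09e-07). CAV2, a caveolin of membrane pits, rose from 108 to 238 CPM in adherent cells and from 22.4 to 65.7 CPM in tumor spheres. CAPZA2, a subunit of the actin capping protein, rose by 0.65 and 0.35 on the log2 scale. MET, the receptor of hepatocyte growth factor, went another way in adherent cells, with 176.6, 176.5 and 171.2 CPM in shCtrl and 161.6, 161.6 and 194.4 CPM in shSigma cells (log2 fold change -0.02, adjusted p 0.88). In tumor spheres MET stood at 33.72, 30.62 and 32.37 CPM in shCtrl and at 100.5, 99.01 and 108.6 CPM in shSigma cells, a rise of 1.67 (SE 0.07). The level of MET thus lay with its window in tumor spheres and not in adherent cells, where its groups overlapped.

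In the window from 65 to 70 Mb of chromosome 7, 21 of 21 genes had a log2 fold change above 0 in both cultures, 17 passing the test in adherent cells and 18 in tumor spheres. Among all genes tested, 24.6% and 29.7% passed it as higher. TMEM248, a membrane protein, stood at 92.84, 101.1 and 99.67 CPM in adherent shCtrl and at 191.4, 204.4 and 196.9 CPM in adherent shSigma cells, a rise of 1.01 (SE 0.07), and it rose by 1.00 (SE 0.05) in tumor spheres. VKORC1L1, a vitamin K epoxide reductase, rose by 0.54 and 0.80. GUSB, the lysosomal enzyme β-glucuronidase, rose by 0.88 in adherent cells and stood at 104 against 113 CPM in tumor spheres (adjusted p 0.066, edgeR). From 70 to 75 Mb, at 0.87 and 0.63, BAZ1B, a chromatin remodelling subunit, rose by 0.44 and 0.77, EIF4H, a translation initiation factor, by 0.31 and 0.35, and BUD23, an rRNA methyltransferase, by 0.29 and 0.36. From 150 to 155 Mb, at 0.84 and 0.67, RHEB, the small GTPase that activates mTORC1, rose by 0.56 in both cultures, and KMT2C, a histone H3 methyltransferase, by 0.77 and 0.54. The libraries of adherent replicate 3 lay closest to 0 in these latter 2 windows, at -0.19 and 0.16 from 70 to 75 Mb and at -0.17 and 0.13 from 150 to 155 Mb, against -0.75 to -0.45 and 0.57 to 0.61 for the other replicates of the first.

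The short arm of chromosome 3, from 0 to 75 Mb, had 15 kept windows with 378 genes and moved the other way. No window from 75 to 95 Mb was kept. Library values were 0.19, 0.22 and 0.25 in adherent shCtrl and -0.23, -0.23 and -0.19 in adherent shSigma cells, and 0.24, 0.22 and 0.26 in sphere shCtrl against -0.24, -0.23 and -0.24 in sphere shSigma cells. The groups did not overlap, and the median gene stood at 74.1% of its control level in adherent cells and at 71.1% in tumor spheres. All 15 windows were called lower in both cultures. The adherent test called 205 of the 378 genes lower and 32 higher, where 23.0% and 24.6% of all genes tested were. The sphere test called 263 lower and 25 higher, where 30.3% and 29.7% of all genes tested were. The 21 windows of the long arm, with 414 genes, had a median of -0.02 in adherent cells and -0.03 in tumor spheres.

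Of the 5 lowest windows of the genome 3 lay on the short arm of chromosome 3. From 70 to 75 Mb, with 8 genes, library values were 0.34, 0.34 and 0.28 in adherent shCtrl and -0.39, -0.45 and -0.17 in adherent shSigma cells, for a median of -0.66 (adjusted p 0.000161, limma). In tumor spheres they were 0.31, 0.45 and 0.41 against -0.40, -0.49 and -0.45, for a median of -0.88 (adjusted p 6.33e-08). PPP4R2, a regulatory subunit of protein phosphatase 4, fell from 133 to 89.1 CPM in adherent cells and from 153 to 92.6 CPM in tumor spheres. EIF4E3, a cap-binding protein, fell by 0.64 and 1.09, and SHQ1, an assembly factor of H/ACA ribonucleoproteins, by 0.69 and 0.53. From 0 to 5 Mb, where the medians were -0.70 and -0.83, SUMF1, which activates sulfatases, fell by 1.38 and 0.91, TRNT1, the enzyme that adds CCA to tRNA, by 0.63 and 0.75, and BHLHE40, a transcriptional repressor, by 0.29 and 1.95. From 60 to 65 Mb, at -0.78 and -0.63, THOC7, of the THO mRNA export complex, fell by 0.83 and 0.79 and PSMD6, of the proteasome lid, by 0.79 and 0.68. PTPRG, a receptor tyrosine phosphatase in the same window, did not pass the test in either culture, at 147 against 132 CPM in adherent cells and at 112 against 120 CPM in tumor spheres.

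On chromosome 8 the lower stretch began beyond the centromere, from 50 to 145 Mb, with 17 windows and 291 genes. Library values were 0.25, 0.20 and 0.20 in adherent shCtrl and -0.23, -0.25 and -0.15 in adherent shSigma cells, and 0.20, 0.25 and 0.23 against -0.21, -0.24 and -0.23 in tumor spheres. The median gene stood at 74.2% of control in adherent cells and at 73.9% in tumor spheres, and the groups did not overlap. In adherent cells 15 of the windows were called lower and in tumor spheres 14, with medians from -0.74 to -0.06 and from -0.70 to -0.06. Toward the end of the arm the windows were not all called: from 125 to 130 Mb the median was -0.34 in adherent cells and -0.06 in tumor spheres, from 130 to 135 Mb it was -0.20 and -0.36 and from 140 to 145 Mb -0.06 and -0.14, with the first called in adherent cells, the second in tumor spheres and the last in neither. The 7 windows of the short arm had a median of 0.08 and -0.01 over 153 genes.

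By both cultures' mean the lowest window of chromosome 8, from 115 to 120 Mb with 15 genes, stood at 0.44, 0.35 and 0.28 in adherent shCtrl and at -0.32, -0.35 and -0.29 in adherent shSigma cells, for a median of -0.74. In tumor spheres it stood at 0.37, 0.39 and 0.31 against -0.35, -0.36 and -0.33, for a median of -0.70. By the sphere test 14 of its 15 genes were lower, beside 30.3% of all genes tested. RAD21, a subunit of the cohesin ring, stood at 686.9, 634.0 and 599.4 CPM in adherent shCtrl and at 337.7, 328.5 and 380.8 CPM in adherent shSigma cells, a fall of 0.87 (SE 0.09). In tumor spheres RAD21 stood at 495.3, 501.3 and 471.2 CPM in shCtrl and at 298.3, 297.8 and 304.7 CPM in shSigma cells. EIF3H, of the translation initiation factor eIF3, fell by 0.38 and 0.53, and TAF2, of the general transcription factor TFIID, by 0.74 and 0.55.

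Chromosome 14 was lower from 20 to 95 Mb, over 12 windows and 352 genes. Library values were 0.20, 0.17 and 0.15 in adherent shCtrl and -0.20, -0.22 and -0.08 in adherent shSigma cells, and 0.16, 0.23 and 0.16 against -0.19, -0.18 and -0.17 in tumor spheres. The groups did not overlap, and the median gene stood at 79.2% of control in adherent cells and at 77.7% in tumor spheres. In adherent cells 10 windows were called lower and in tumor spheres 9. CPSF2, of the mRNA cleavage complex, fell by 0.79 (SE 0.09) in adherent cells and by 0.45 (SE 0.05) in tumor spheres. The next window, from 95 to 100 Mb, which the adherent partition put beyond its border, was called lower in both cultures, at -0.25 and -0.50. Beyond 100 Mb the direction turned in adherent cells: the window from 100 to 105 Mb stood at 0.36 in adherent cells, where it was called higher, and at 0.02 in tumor spheres. The window from 105 Mb to the chromosome's end stood at 0.53 in adherent cells (adjusted p 0.148, limma) and at 0.50 in tumor spheres, where it was called.

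**Figure D3:**
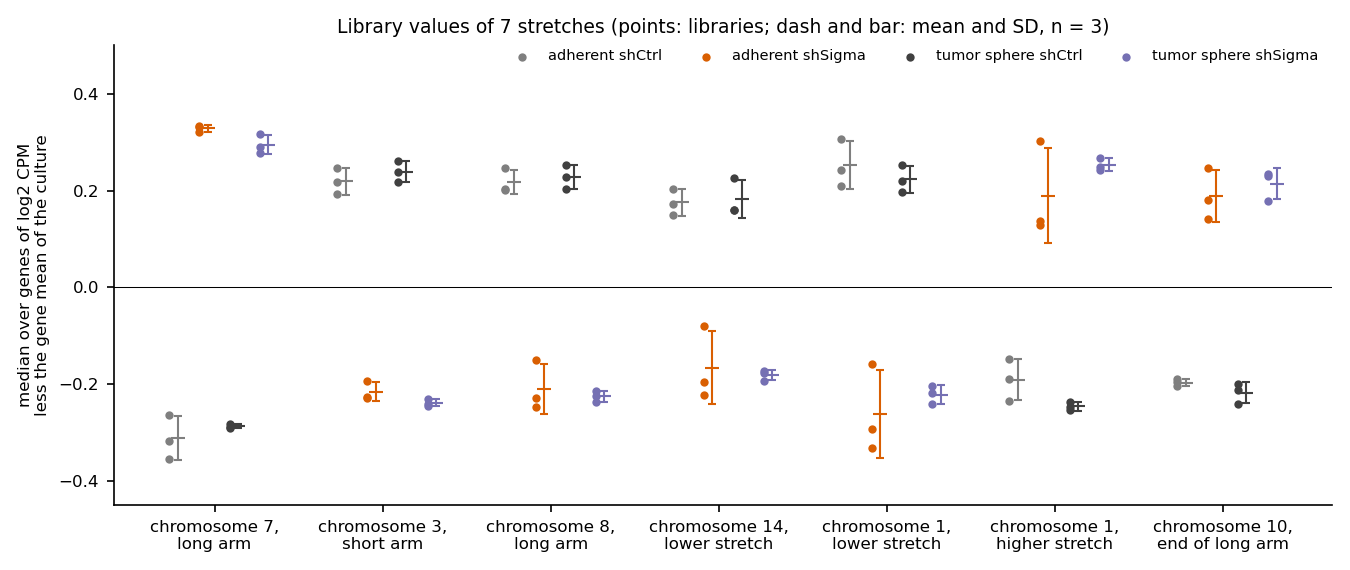
Library values (y axis, log2 CPM less the gene's mean in its culture, median over the genes) of the 7 stretches in the 12 libraries, 1 point per library, with the mean and SD (n = 3) of each group beside them. The shCtrl and shSigma points do not overlap in any of the stretches in either culture.

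Chromosome 1 held stretches of both directions. From 50 to 120 Mb of the short arm, 14 windows with 302 genes had library values of 0.31, 0.24 and 0.21 in adherent shCtrl and -0.29, -0.33 and -0.16 in adherent shSigma cells, and of 0.22, 0.25 and 0.20 against -0.24, -0.22 and -0.20 in tumor spheres. The median gene stood at 70.6% of control in adherent cells and at 72.9% in tumor spheres. The adherent test called all 14 windows lower and the sphere test 12, the others being the windows from 55 to 60 Mb, at -0.36 and 0.01 (interaction adjusted p 0.107, limma), and from 75 to 80 Mb, at -0.21 and -0.17. The lowest window, from 60 to 65 Mb, had medians of -0.72 and -0.65. USP1, a deubiquitinase of DNA repair in it, fell from 220 to 112 CPM in adherent cells and from 182 to 112 CPM in tumor spheres. PATJ, a cell polarity protein, fell by 0.74 and 1.17, and PGM1, phosphoglucomutase, by 0.25 and 0.53. ROR1, a receptor tyrosine kinase in the same window as these 3, rose by 1.67 (SE 0.09) in tumor spheres and stood at 20.8 against 24.6 CPM in adherent cells (adjusted p 0.068, edgeR).

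From 160 to 200 Mb of the long arm of chromosome 1, 7 windows with 150 genes stood higher as a stretch, with 6 of them called higher in adherent cells and all 7 in tumor spheres. The window from 185 to 190 Mb had an adherent median of 0.01, below 0 with DESeq2 size factors or with genes centred on 0, and a sphere median of 0.26. Library values were -0.15, -0.19 and -0.23 in adherent shCtrl and 0.14, 0.13 and 0.30 in adherent shSigma cells, and -0.25, -0.24 and -0.25 against 0.24, 0.25 and 0.27 in tumor spheres. The median gene was 1.30-fold higher in adherent cells and 1.38-fold higher in tumor spheres. The window from 195 to 200 Mb, with 10 genes, had the highest adherent median of the genome, 0.88 (SE of the difference 0.068), and a sphere median of 0.69. NEK7, a mitotic kinase, rose by 0.54 and 0.77 there and ZBTB41, a zinc finger protein, by 0.65 and 0.64, while ASPM, a protein of the mitotic spindle, fell by 0.40 in adherent cells and rose by 0.77 in tumor spheres. The end of the long arm of chromosome 10, from 110 to 134 Mb, was the smallest of the stretches, with 5 windows and 106 genes. Its library values were -0.20, -0.19 and -0.20 against 0.18, 0.14 and 0.25 in adherent cells and -0.20, -0.21 and -0.24 against 0.18, 0.24 and 0.23 in tumor spheres, and the median gene was 1.29-fold and 1.37-fold higher. All 5 windows were called higher in both cultures, but 3 of them in adherent cells with DESeq2 size factors or with genes centred on 0.

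The shift was not held by one kind of gene. On the long arm of chromosome 7 the 232 genes of the plus strand had a median of 0.63 in adherent cells and 0.59 in tumor spheres, and the 206 genes of the minus strand had 0.66 and 0.59. When genes were split into 3 equal parts by their mean CPM, the part under 11.5 CPM stood at 0.72 and 0.69 there, and the part over 52.0 CPM at 0.57 and 0.56. On the short arm of chromosome 3 the 184 genes of the plus strand stood at -0.46 and -0.50 and the 194 of the minus strand at -0.40 and -0.48, and the 24 long noncoding RNA genes at -0.68 and -0.57 beside -0.41 and -0.49 for the 350 protein-coding genes. The 23 long noncoding RNA genes of the stretch on chromosome 14 went against it in adherent cells, at 0.11, and stood at -0.16 in tumor spheres. Those of the stretch on chromosome 8, 24 genes, stood at -0.08 and -0.41.

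The third question was where the shifts began and ended. An optimal partition cut each chromosome's row of window medians into pieces of constant height with at least 3 windows, on adherent cells alone, and the pieces were then read in tumor spheres, whose libraries the partition did not use. It gave 34 segments with 12 borders on 10 chromosomes. The mean of 14 segments was over 0.2 in size, 9 higher and 5 lower, and 13 of them had the same sign in tumor spheres, 7 with a mean over 0.2 there. The partition of tumor spheres alone gave 35 segments with 13 borders, and the 10 segments over 0.2 in size had the same sign in adherent cells, 7 of them over 0.2. Of the borders 7 lay at the same place in both partitions, and at all 12 adherent borders the step had the same direction in tumor spheres. The number of borders depended on the penalty: with the penalty doubled there were 6 in adherent cells and 8 in tumor spheres.

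Each of the 6 largest adherent borders was then placed between 2 neighbouring gene starts in each culture by the cut that best parted the fold changes of the genes within 2 windows on each side. Only genes of kept windows were searched, so the gaps given below may hold tested genes of windows that were not kept. The windows before and after the border had adherent medians of -0.61 and 0.16 on chromosome 1, -0.29 and 0.76 on chromosome 7, -0.66 and -0.09 on chromosome 3, 0.07 and -0.63 on chromosome 8, -0.33 and -0.25 on chromosome 14 and 0.51 and 0.04 on chromosome 5. The sphere medians of these windows, in the same order, were -0.44 and 0.23, -0.17 and 0.64, -0.88 and 0.15, -0.07 and -0.34, -0.16 and -0.50, and 0.11 and -0.11. On chromosome 1, across the centromere, the mean window median went from -0.49 to 0.32 in adherent cells and from -0.35 to 0.34 in tumor spheres. Both cultures placed the cut between PHGDH, at 119648411, and SRGAP2B, at 145095528. PHGDH, the first enzyme of serine synthesis, is the last gene of a kept window before the gap. PHGDH fell from 408 ± 22.8 to 210 ± 9.72 CPM in adherent cells (SD, n = 3) and from 353 ± 22.3 to 185 ± 2.27 CPM in tumor spheres. POLR3C, a subunit of RNA polymerase III beyond the gap, stood at 58.7 ± 3.92 against 58.1 ± 2.66 CPM in adherent cells and at 49.5 ± 5.69 against 55.7 ± 1.89 CPM in tumor spheres, and did not pass the test in either. No gene of a kept window lay within the 25.4 Mb between PHGDH and SRGAP2B, so the border was not placed more closely there. SRGAP2B and GPR89A, the first genes on the far side, have near-identical copies on chromosome 1, and their counts are uncertain.

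On chromosome 7 both cultures again placed the cut in the same gap, between CHCHD2 at 56106476 and ZNF117 at 65006684, an interval of 8.90 Mb that holds the centromere. The mean window median went from -0.09 to 0.64 in adherent cells and from 0.04 to 0.62 in tumor spheres. CHCHD2, a mitochondrial protein, stood at 113 ± 7.06 against 84.7 ± 1.70 CPM in adherent cells (log2 fold change -0.42, SE 0.08) and at 176 ± 21.6 against 141 ± 20.4 CPM in tumor spheres (-0.32, SE 0.11). ZNF117, a zinc finger gene that shares its locus and strand with ERV3-1 so that their counts cannot be told apart with certainty, rose from 7.78 ± 0.44 to 39.1 ± 4.31 CPM in adherent cells and from 10.6 ± 1.12 to 15.7 ± 3.18 CPM in tumor spheres.

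On chromosome 3 the step lay beside a gap in the kept windows, from 75 to 95 Mb, that holds the centromere. Windows there held fewer than 8 tested genes, so the windows do not show where in the gap the shift ended. In adherent cells the cut fell between PPP4R2, at 72996803, and EBLN2, at 73061659, and in tumor spheres between EBLN2 and ARL6, at 97764521. The window means went from -0.51 to -0.08 in adherent cells and from -0.55 to -0.03 in tumor spheres. EBLN2 lies within PPP4R2, so reads of both may mix. Beyond the gap of 24.7 Mb, ARL6, a small GTPase of cilia, stood at 13.8 ± 1.01 against 14.5 ± 1.97 CPM in adherent cells and at 13.04 ± 0.49 against 11.3 ± 0.85 CPM in tumor spheres and did not pass the test in either, and CRYBG3 rose by 0.32 and 0.57.

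On chromosome 8 the window means went from 0.06 to -0.48 in adherent cells and from -0.01 to -0.42 in tumor spheres. The adherent cut fell on the far side of the centromere, at 51899186, between PCMTD1 and its divergent transcript, and the sphere cut on the near side, between FNTA at 43034194 and POMK at 43093498, which is 8.84 Mb away. HGSNAT, a lysosomal enzyme between these cuts, rose by 0.39 in adherent cells and fell by 0.32 in tumor spheres, and ATP6V1H, a subunit of the lysosomal proton pump beyond them, fell by 0.74 and 0.79. Beyond the adherent cut RB1CC1, an initiator of autophagy, stood at 153 against 157 CPM in adherent cells and at 124 against 134 CPM in tumor spheres and did not pass the test.

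On chromosome 14 the window means went from -0.35 to 0.21 in adherent cells and from -0.36 to 0.01 in tumor spheres. The adherent cut fell between ZNF839 at 102317377 and CINP at 102362916, and the sphere cut between LINC00239 at 101730437 and PPP2R5C at 101761709, so the cuts lay 0.594 Mb apart. On the far side TECPR2, an autophagy protein, stood at 21.1 ± 4.01 against 31.9 ± 3.11 CPM in adherent cells and at 32.8 ± 3.24 against 38.9 ± 1.86 CPM in tumor spheres, a rise of 0.60 and 0.25. CINP overlaps ZNF839 on the other strand and starts beside TECPR2, and whether the counting used strand is not given in the sources used here.

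Of these 6 borders, that on chromosome 5 had its cuts farthest apart between cultures. Its short arm up to 15 Mb, 3 windows with 40 genes, had a mean of 0.52 in adherent cells and 0.19 in tumor spheres, and the segment that followed had -0.07 and -0.12. The adherent cut fell between GOLPH3, at 32174319, and MTMR12, and the sphere cut between TRIO, at 14143342, and OTULINL, 17.9 Mb away. GOLPH3, a Golgi protein, rose by 0.54 (SE 0.09) in adherent cells and by 0.26 (SE 0.06) in tumor spheres. MTMR12, a phosphatase-like adaptor on the other side, rose by 0.21 and 0.44, so that single genes did not follow the cut.

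**Figure D4:**
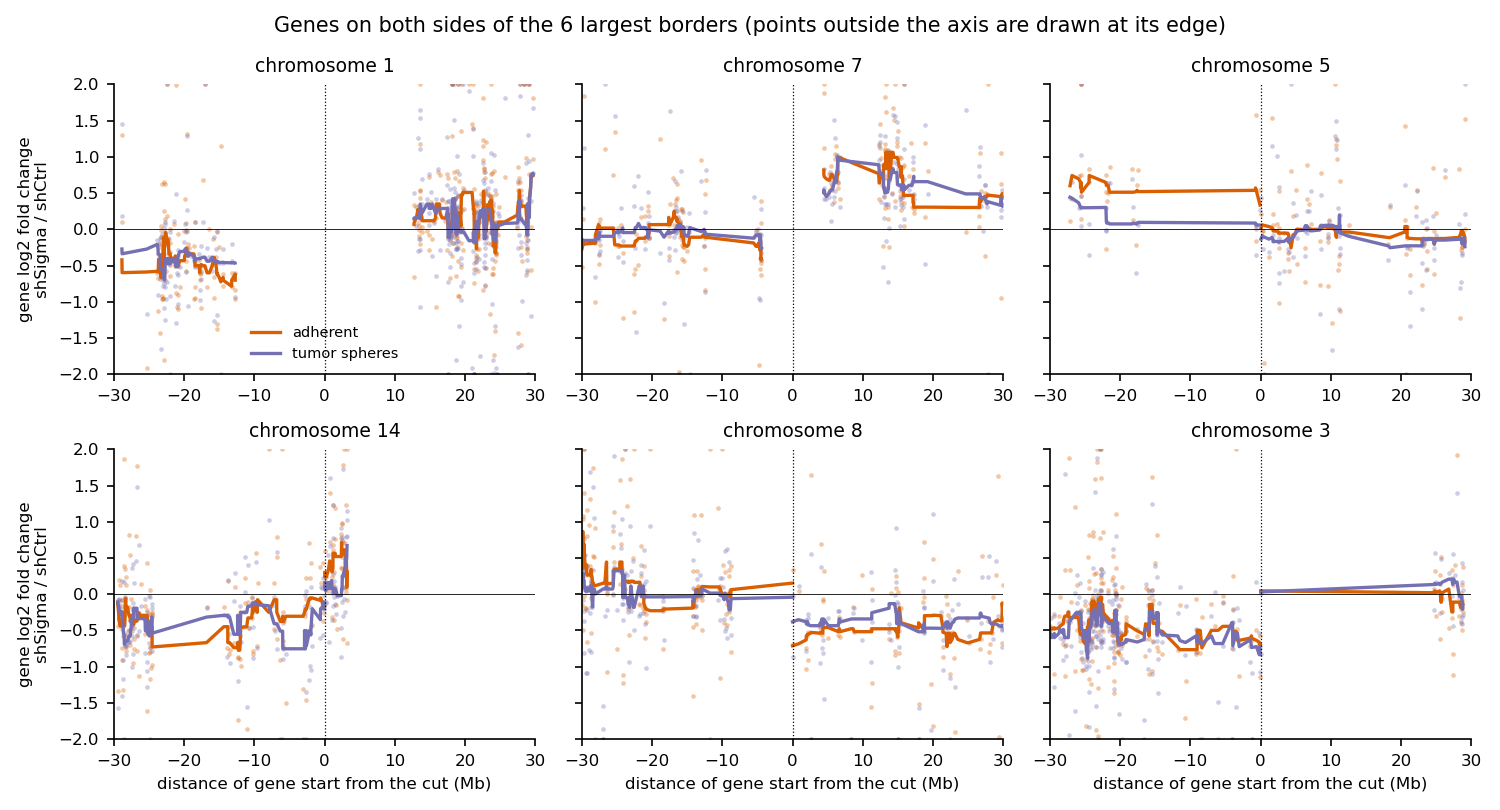
Log2 fold changes of single genes (y axis, faint points) against the distance of their starts from the adherent cut or the middle of its gap (x axis, Mb) at the 6 largest adherent borders, with running medians as lines for adherent cells and tumor spheres. Lines of both cultures change level at the cuts of chromosomes 1, 7, 8 and 3, while on chromosome 5 the sphere line stays nearer 0 on the left side. Points beyond 2 in size are drawn at the edge of the axis.

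Smaller features lay elsewhere. On chromosome 15 the windows from 85 to 95 Mb were called higher in both cultures (0.69 and 0.60 in adherent cells, 0.34 and 0.37 in tumor spheres), and the 2 windows from 95 Mb to the end were called lower in both (-0.39 and -0.48 in adherent cells, -0.45 and -0.46 in tumor spheres), so that the sign turned between neighbours. Both end windows of chromosome 21, from 40 Mb, were called higher in both, at 0.48 and 0.61 in adherent cells and at 0.36 and 0.52 in tumor spheres. On chromosome 22 the window from 20 to 25 Mb was called higher in both and that from 45 to 50 Mb lower in both (-0.36 and -0.50). The window from 20 to 25 Mb of chromosome 19 held 20 genes, 19 of them zinc finger genes of a cluster whose members resemble each other and may share reads. It was called lower in both cultures, with medians of -0.66 and -0.47. The adherent test called 11 of the 19 zinc finger genes lower and 2 higher, and the sphere test 13 lower and 1 higher, while the 425 zinc finger genes of the other windows had a median of 0.06 and -0.02.

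The fourth question was in which windows the shift itself differed between cultures, tested as a term for hairpin by culture fitted to the 12 libraries together. With the adjusted p under 0.05 and the medians of the cultures more than 0.2 apart, 28 of 484 windows were called, or 5.79%, with 17 differences above 0 (a higher shift in tumor spheres) and 11 below 0. This split moved with the scaling, to 20 above and 4 below 0 both with DESeq2 size factors and with all genes centred on 0. Chromosome 1 held 6 of the 28 windows, chromosome 10 held 5, and the other 17 were spread over 10 further chromosomes. Single libraries moved this count: it was 67 without adh shCtrl replicate 3, 46 without adh shSigma replicate 3, 17 without adh shCtrl replicate 2 or TS shSigma replicate 1, 15 without TS shSigma replicate 3 and 14 without TS shCtrl replicate 1 or 3. It was 104 with trimmed means in place of medians and 122 with counts summed per window. With the replicate number fitted as a block it was 0, which is taken up further on.

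From 20 to 50 Mb of chromosome 1, 6 windows with 330 genes were called lower in adherent cells, and the interaction was called in 5 of them. In tumor spheres limma called 0 of the 6, with 3 at an unadjusted p under 0.05, and between 0 and 1 were called lower over 19 settings, edgeR on summed counts included. On a scale common to all libraries, adherent shCtrl cells stood at 0.21, 0.24 and 0.27, adherent shSigma cells at -0.10, -0.13 and -0.10, sphere shCtrl cells at -0.06, -0.07 and -0.05 and sphere shSigma cells at -0.07, -0.08 and -0.10. The adherent shCtrl libraries stood above all others, and the other 3 groups lay close together. From 0 to 40 Mb of chromosome 10, the short arm, 8 windows with 136 genes showed the opposite arrangement. Adherent shCtrl cells stood at 0.14, 0.13 and 0.08 and adherent shSigma cells at 0.16, 0.13 and 0.30, while sphere shCtrl cells stood at -0.35, -0.33 and -0.40 and sphere shSigma cells at 0.06, 0.05 and 0.06. Here the sphere shCtrl libraries stood below all others. In tumor spheres 7 of the 8 windows were called higher, against 2 in adherent cells.

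By the fitted interaction term the 3 largest differences lay on chromosomes 10 and 4. The plain difference of the cultures' medians gave another order, from -0.57 at 40 to 45 Mb of chromosome 11 (interaction -0.22, called) to 0.73 at 10 to 15 Mb of chromosome 7 (interaction 0.37, adjusted p 0.0680, limma, not called). From 30 to 35 Mb of chromosome 10, with 14 genes, the median was 0.22 in adherent cells and 0.85 in tumor spheres, and the interaction was 0.54 (SE 0.069, adjusted p 0.00199, limma). ITGB1, the β1 integrin, rose in both cultures, by 0.29 and 0.39, KIF5B, a kinesin motor, fell by 0.22 in adherent cells and rose by 0.22 in tumor spheres, and NRP1, a semaphorin and VEGF co-receptor, rose by 0.91 in adherent cells and fell by 0.35 in tumor spheres. From 15 to 20 Mb the median was 0.03 and 0.56, with an interaction of 0.50 (SE 0.10, adjusted p 0.00959, limma). VIM, the mesenchymal filament protein vimentin, stood at 918.8, 836.6 and 843.5 CPM in adherent shCtrl and at 1058, 1058 and 1134 CPM in adherent shSigma cells, and at 155.3, 171.9 and 193.0 CPM in sphere shCtrl and 822.3, 776.0 and 765.3 CPM in sphere shSigma cells. NMT2, an N-myristoyltransferase, fell by 0.32 in adherent cells and rose by 0.56 in tumor spheres, and RSU1, a partner of integrin signalling, stood at 94.1 against 93.5 CPM in adherent cells and rose by 0.73 in tumor spheres. From 125 to 130 Mb of chromosome 4 the median was -0.12 and 0.22, with an interaction of 0.52 (SE 0.082, adjusted p 0.00524, limma). JADE1, a subunit of a histone acetyltransferase complex, fell by 0.22 in adherent cells and rose by 0.88 in tumor spheres, and HSPA4L, a heat shock protein, fell by 0.95 and 0.68.

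**Figure D5:**
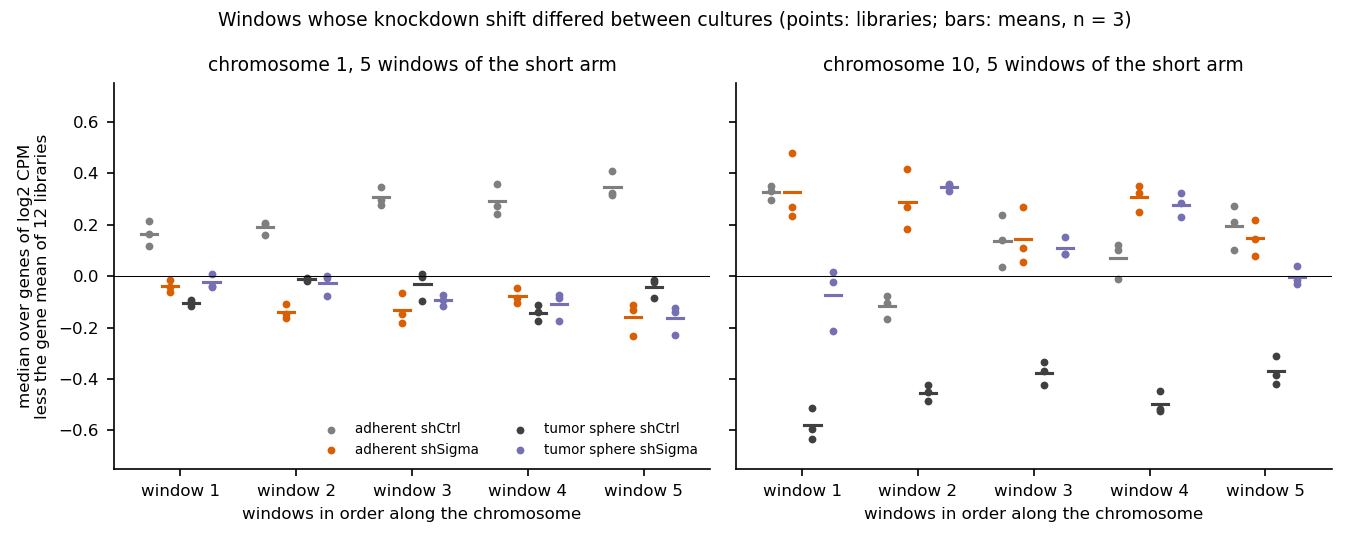
Library values (y axis, log2 CPM less the gene's mean over all 12 libraries, median over the genes) of 5 windows on the short arm of chromosome 1 (left) and 5 on that of chromosome 10 (right) whose interaction was called, in order along the chromosome (x axis), 1 point per library and a bar at each group's mean (n = 3). The 3 adherent shCtrl points stand above the other 9 in each window on the left, and the 3 sphere shCtrl points stand below the other 9 in each window on the right.

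The comparison of cultures shares all its libraries with the comparisons of hairpins, so its values are given side by side and no relation between them is drawn. Tumor spheres against adherent cells called 166 windows in shCtrl cells (34.3%), 57 higher and 109 lower, and 88 in shSigma cells (18.2%), 23 higher and 65 lower. On the long arm of chromosome 7 the culture median was 0.06 in shCtrl and 0.02 in shSigma cells, on the short arm of chromosome 3 it was 0.10 and 0.01, and on the long arm of chromosome 8 it was 0.00 and -0.04. On the short arm of chromosome 10 it was -0.43 in shCtrl and -0.07 in shSigma cells.

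GC content moved with the window medians in each comparison. The Spearman coefficient over 484 windows was 0.36 for the hairpin in adherent cells, 0.23 for the hairpin in tumor spheres, 0.51 for culture in shCtrl cells and 0.40 for culture in shSigma cells. With windows in 4 equal parts by GC content, the part with the lowest, up to 38.6%, had a middle adherent median of -0.07 with 15 called higher and 30 lower, and in the part with the highest, from 43.9%, it was 0.14 with 29 higher and 13 lower. In tumor spheres these middles were -0.06 and 0.03. The part of GC content in the regional shifts was not tested beyond the alternative that takes out a curve over GC.

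Genes with known roles in cancer were read against their windows, from a list of 50, of which 42 were tested in kept windows. In adherent cells 12 were higher and 14 lower, where 24.6% and 23.0% of all genes tested were, and in tumor spheres 18 were higher and 15 lower, where 29.7% and 30.3% were. The median was -0.11 and 0.04, beside 0.05 and 0.00 over all 13325 genes, and 26 of the 42 (61.9%) had the sign of the other genes of their window in each culture, beside 62.6% and 60.5% of all genes. On the short arm of chromosome 3, VHL, a tumor suppressor of hypoxia signalling, fell by 0.39 and 0.42, and FOXP1, a transcription factor, by 0.71 and 0.94. CTNNB1, which encodes β-catenin, stood at 507.9, 487.9 and 460.2 CPM in adherent shCtrl and at 379.5, 379.1 and 444.9 CPM in adherent shSigma cells, a fall of 0.27 (SE 0.08), where the other genes of its window had a median of -0.48. In tumor spheres CTNNB1 stood at 918.6, 934.1 and 855.4 CPM in shCtrl and at 572.6, 565.0 and 564.9 CPM in shSigma cells, a fall of 0.67 beside -0.64 for its window. The groups did not overlap in either culture. On the long arm of chromosome 7, BRAF, a kinase of the MAPK pathway, rose by 0.49 and 0.30 beside 0.65 and 0.57 for its window, while CDK6, a cell cycle kinase, had 0.00 in adherent cells and fell by 0.51 in tumor spheres beside 0.50 and 0.55. On chromosome 14, FOXA1, a pioneer factor of prostate epithelium, fell by 0.37 and 1.15 beside -0.30 and -0.14, while NKX2-1, a homeobox factor in the same window whose locus overlaps an antisense gene, rose by 0.88 and 0.30 beside -0.32 and -0.15. On chromosome 8, MYC fell by 0.48 in adherent cells and rose by 0.41 in tumor spheres beside -0.28 and -0.08.

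Some gene groups moved apart from their windows. For 71 genes of the respiratory chain, scattered over 63 windows, the median was -0.22 in adherent cells and -0.27 in tumor spheres, and -0.30 and -0.31 after the median of the other genes of each gene's window was taken off. For 73 genes of the mitochondrial ribosome it was -0.23 and -0.26, and -0.35 and -0.28 after the window was taken off. S phase genes (40) stood at -0.86 and -0.31, and at -0.88 and -0.26 less their windows, and genes of G2 and mitosis (54) at -0.88 and -0.24, and at -0.95 and -0.26. The 30 proteasome genes stood at -0.53 and -0.17, and at -0.56 and -0.21. The adherent test, by which 23.0% of all genes tested were lower and 24.6% higher, called 31 of the respiratory chain genes lower and 4 higher, 34 and 3 of the mitochondrial ribosome, 36 and 0 of S phase, 50 and 1 of G2 and mitosis, and 23 and 0 of the proteasome. The sphere test, with 30.3% and 29.7% over all genes, called 44 lower and 9 higher, 38 and 8, 27 and 4, 33 and 6, and 14 and 2 of the same lists in turn. The 70 genes of the cytosolic ribosome stood at -0.15 and -0.34, and at -0.16 and -0.32 less their windows, with 19 called lower and 0 higher by the adherent test and 42 and 3 by the sphere test. The 37 genes of Wnt signalling stood at 0.28 and 0.25, and at 0.17 and 0.22 less their windows, with 7 called lower and 11 higher by the adherent test and 11 and 21 by the sphere test. For each of these 7 lists the median kept its sign when the windows were taken off.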

How the data were processed

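RNA was sequenced from DU145 cells in 4 groups of 3 libraries. Per the labels, 800 ng of RNA went into each strand-marked library and single-end reads of 75 nt were taken. With STAR (2.6.1c in the submitters' processing notes) the authors mapped reads to GRCh38.p12, and they deposited whole-number counts for each gene with no scaling. Which gene models were counted, whether strand was used and how reads mapping to several places were handled is not given in the sources used here. Reads of copied genes may be lost or shared, which could shift windows of gene clusters.

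Groups and replicate numbers came from the labels, and 0 columns of counts were left unused. Of 28747 identifiers, 26153 had a position in GENCODE 44. Genes passed filterByExpr of edgeR (minimum count 10) over the 12 libraries. Fold changes and gene tests came from edgeR 4.0.16 (TMM, robust quasi-likelihood, two-sided, each culture on its own), in R 4.3.3, with Benjamini-Hochberg adjustment over 14175 genes. A library's window value was the median over genes of log2 CPM (prior count 2) less the gene's mean over the libraries fitted, tested with limma 3.58.1, adjusted over 484 windows. Window medians are unweighted over genes, so each gene counts alike whatever its depth.

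Windows described singly, by their medians, library values or genes, were chosen as the 5 highest and 5 lowest, those beside the 6 largest adherent borders and the 3 with the largest interaction, with the 3 protein-coding genes of highest CPM and the gene of at least 5 CPM farthest on the other side of 0. At each border the 2 protein-coding genes of at least 5 CPM on each side were named. Exceptions named after their values were seen are single windows of chromosomes 1, 7, 8, 11, 14, 15, 19, 21 and 22, the 7 stretches, 1:20-50 Mb and 10:0-40 Mb. The targeted gene with its window, and other genes that the rule would name, are left out here. The windows, gene lists and comparisons were chosen with earlier results of these data known.

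Replicate libraries of a group differed by 2.65 to 42.4 in chi-square per gene, where sampling noise alone gives about 1, so none was counted as a copy of another. With 3 against 3 libraries an exact permutation test cannot go below 0.1, so tests rest on models that share spread across windows or genes. In simulated data of 484 windows and 14175 genes, some windows were shifted by 0.5 on the log2 scale. The window test found 40 of 40 of these in adherent cells, 60 of 60 in tumor spheres and 20 of 20 for the interaction. It made 1, 0 and 0 false calls in turn. The gene test found 172 and 185 of 200 genes changed by 1 on the log2 scale, with 27 and 85 false calls. How often windows are falsely called in the real libraries, where neighbouring genes can vary together, was not tested. Alternatives covered the normalization (DESeq2 1.42.0 size factors), the filter, the window size and offset, the summary, the size limit, leaving out each library, and the replicate block. A curve over window GC was added after seeing the data.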

Additional observations from a re-analysis of the deposited data

Results flagged for a closer look

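The change of the window median with the hairpin differed between cultures in 28 of 484 windows by the interaction test (limma, adjusted p under 0.05 and a difference of the medians over 0.2 in size). Among the windows described singly, the interaction was 0.54 from 30 to 35 Mb of chromosome 10, 0.52 from 125 to 130 Mb of chromosome 4 and 0.50 from 15 to 20 Mb of chromosome 10, each a higher shift in tumor spheres. It was -0.41 from 10 to 15 Mb of chromosome 5, a lower shift in tumor spheres. The group farthest from the other 3 was adherent shCtrl in 17 of the 28 windows, sphere shCtrl in 7 and adherent shSigma in 4. The adherent call from 30 to 35 Mb of chromosome 10 was lost under 10 alternatives. The causes were not tested.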

How the results depend on the processing

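The values of named windows were set beside the threshold of a call over the alternatives. In adherent cells 399 of 422 kept their side of it, in tumor spheres 409 of 423 and for the interaction 66 of 70. Of the values called in the main fit or in the alternative, 0 changed sign. A change of sign in a window called in neither was counted as kept. Counts of called windows moved with the rule. With a size limit of 0.4, the adherent fit called 82 windows, the sphere fit 80 and the interaction 8. With at least 15 genes a window the counts were 101, 101 and 15, and with windows of 10 Mb they were 81, 78 and 16, fewer windows being tested in both. With no size limit tumor spheres had 279. The interaction called 122 with counts summed per window, 104 with a trimmed mean, 65 less a curve over GC and 0 with the replicate block, where 73 had an unadjusted p under 0.05 and the lowest adjusted p was 0.0914 (limma). The causes were not tested. Without the filter on low counts the same-sign share was 61.6%, and with the penalty doubled there were 6 borders in adherent cells and 8 in tumor spheres.

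Leaving out each library in turn gave 127 to 191 called windows in adherent cells, 147 to 159 in tumor spheres, 14 to 67 for the interaction, 101 to 233 for culture in shCtrl and 58 to 126 in shSigma cells, and a same-sign share of 70.5 to 74.8%. The lowest culture counts were those without TS shCtrl replicate 3 and without TS shSigma replicate 1. Same-numbered libraries correlated at -0.62, -0.03 and -0.85 in adherent cells and at 0.06, 0.00 and -0.11 in tumor spheres. Those with different numbers ran from -0.74 to 0.82 in adherent cells and from -0.16 to 0.18 in tumor spheres. The numbers thus gave no sign of pairing. With 3 libraries a group such coefficients cannot exclude it. With the replicate block the adherent fit called 117 windows and the sphere fit 152. Depth limits single genes of under about 10 counts more than windows, whose precision is set by their number of genes and by 3 libraries a group.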
